A study of Mus musculus with 26 samples.

Results

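Pdx1, Ptf1a, Sox9, Hnf4a, Gata6, Foxa2, Onecut1 and Nr5a2, the transcription factors that set up and maintain the lineages of the pancreas, were examined in subcutaneous tumors grown from Panc02 cells, a mouse pancreatic ductal adenocarcinoma line. The 8 genes were chosen by name, from their known roles, with earlier results of these data known. Each had 1 probe set among the 19505 named genes of the array. There were 26 tumors, 1 array each: 7 from mice given anti-PD1 and HMB (anti-PD1 + HMB), 6 from mice given anti-PD1, 7 from mice given HMB and 6 from control mice. These numbers follow the sample titles, from which the group sizes in the design text of the series differ. HMB, a metabolite of leucine, was mixed into the AIN-93G diet starting 1 week ahead of the tumor cells, and control and anti-PD1 mice ate that diet without it. Anti-PD1, an antibody that blocks an inhibitory receptor of T cells, was dosed at 200 µg per mouse with 3 days between doses once tumors had formed, and the methods give an isotype antibody to mice without anti-PD1. All mice were male C57BL/6 animals, and all carried cells of the same transplanted line under the skin rather than in the pancreas. Whole tumors were homogenized, so RNA of malignant, stromal, immune and adjacent cells entered each array, and in such bulk samples fewer cells of a type and less RNA per cell cannot be told apart.

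The pancreas buds from endoderm that is opened to transcription by the forkhead factor Foxa2 and the zinc finger factor Gata6, and the homeodomain factor Pdx1 together with the basic helix-loop-helix factor Ptf1a specifies its progenitors. Sox9, Onecut1 and Hnf4a act in the progenitors and in the gut, liver and duct lineages, and Sox9 later marks duct cells. Ptf1a and Nr5a2 then keep acinar cells making digestive enzymes, and Pdx1 and Foxa2 are used by islet beta cells. In pancreatic cancer Gata6 and Hnf4a are known as markers of the classical subtype. Sox9 is also used by cells outside the pancreas, among them chondrocytes and hair follicle cells.

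The RefSeq promoter table, built on GRCm38.p6, held 6 of the 8 genes, Pdx1, Ptf1a, Hnf4a, Foxa2, Onecut1 and Nr5a2. The upstream 250 bases of Pdx1 and Foxa2 are shown because both genes were measured above olfactory and other receptor genes, a background mark, in all 26 tumors and their values had the highest correlation of any pair among the 8 genes. Both run 5′ to 3′ on the gene's strand and end at the base before the annotated start, Pdx1 at chr5:147269847-147270096 on the plus strand and Foxa2 at chr2:148046970-148047219 on the minus strand. Capitals mark the motif matches.
Pdx1: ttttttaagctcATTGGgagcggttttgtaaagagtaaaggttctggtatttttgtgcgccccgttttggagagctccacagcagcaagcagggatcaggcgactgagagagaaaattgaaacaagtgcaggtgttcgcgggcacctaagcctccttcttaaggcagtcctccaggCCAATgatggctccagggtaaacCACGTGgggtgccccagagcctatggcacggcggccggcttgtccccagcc
Foxa2: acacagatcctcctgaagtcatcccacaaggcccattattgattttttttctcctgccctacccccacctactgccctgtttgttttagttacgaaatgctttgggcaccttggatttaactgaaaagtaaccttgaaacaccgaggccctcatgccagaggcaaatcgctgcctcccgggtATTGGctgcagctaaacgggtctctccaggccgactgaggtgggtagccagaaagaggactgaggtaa
The motifs were searched on both strands. General promoter motifs were the box named by its letters CCAAT, the palindromic E-box written CACGTG and the core letters TATAAA. Factor motifs were AGATAA for zinc finger factors such as Gata6, then ACAATG for factors of the SOX family, then TGTTTAC for forkhead factors such as Foxa2, and TAATTA for homeodomain factors such as Pdx1. No matches overlapped in either window. Pdx1 had CCAAT 238 and 74 bases ahead of the start and CACGTG 51 bases ahead of it, and Foxa2 had CCAAT 68 bases ahead. CCAAT was present in 33.9% and CACGTG in 6.02% of the 32851 promoters of that table over the same window. A match describes the letters and not a site in use. The GC content was 54.8% for Pdx1 and 50.8% for Foxa2, against a median of 52.4% over all promoters.

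The deposited log values were treated as log2 and read against background marks of the same array. The first mark was the 95th percentile of 1465 olfactory, vomeronasal and taste receptor genes, which tumors do not use, and it lay between 4.37 and 4.74. The second was the 95th percentile of 5222 negative-control probe sets, between 10.91 and 11.28. A further mark was the brightest of 23 background probe sets binned by base composition, between 7.49 and 9.14. Array medians lay between 6.97 and 7.11. Anti-PD1 + HMB tumor 7 stood apart, with a median correlation with the other arrays of 0.951, against a median of 0.979 over the tumors. Its B cell marker score, the mean over the listed genes of the log2 value minus each gene's mean over the tumors, was 7.16, against -1.21 to 2.69 in the other 25 tumors. Its T cell score was 3.82, against -2.20 to 1.33, its adipocyte score 5.82, against -2.17 to 4.15, and its ductal epithelial score -0.94, against -0.41 to 1.37. Group comparisons that include this tumor, and correlations, are given with and without it for Sox9, Foxa2 and Pdx1.

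Of the 8 genes, only Sox9 lay above both the receptor gene mark and the negative-control mark in every tumor. Of all 19505 named genes, between 3772 and 4489 per tumor were above the negative-control mark. Between 11919 and 12668 per tumor were above the receptor gene mark. Sox9, the SOX factor of progenitors and ducts, ran from 11.39 to 14.50 with a median of 13.69 in anti-PD1 + HMB tumors and from 12.91 to 14.25 with a median of 13.53 in anti-PD1 tumors. It ran from 12.15 to 13.88 with a median of 13.26 in HMB tumors, against 11.96 to 14.22 with a median of 13.39 in control tumors. All 4 groups overlapped over most of their range, and the lowest value of all belonged to anti-PD1 + HMB tumor 7, next to control tumor 2. Sox9 averaged 13.41 ± 0.99 in anti-PD1 + HMB tumors (SD, n = 7), 13.55 ± 0.49 in anti-PD1 tumors (n = 6), 13.20 ± 0.61 in HMB tumors (n = 7) and 13.36 ± 0.78 in control tumors (n = 6). In order of level the groups ran anti-PD1, anti-PD1 + HMB, control and HMB, with every step between neighbors smaller than 1 SD. Without tumor 7 the anti-PD1 + HMB mean was 13.75 ± 0.47 (n = 6), which placed that group first.

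Foxa2, the forkhead factor of endoderm, lay above the receptor gene mark in 26 of 26 tumors and above the negative-control mark in 0 of 26, and exceeded the brightest composition-binned background probe set in 11 of 26. Its values ran from 4.90 to 8.56 with a median of 7.74 in anti-PD1 + HMB tumors and from 7.96 to 9.15 with a median of 8.44 in anti-PD1 tumors. In HMB tumors they ran from 6.41 to 9.43 with a median of 7.51, against 7.32 to 9.56 with a median of 7.53 in control tumors. The anti-PD1 tumors were the tightest group and all sat above the median of the anti-PD1 + HMB tumors, but 3 of 7 anti-PD1 + HMB tumors reached into their range. In the control group 5 tumors lay between 7.32 and 7.58, and control tumor 4 held the highest value of all 26. The means were 7.45 ± 1.21 in anti-PD1 + HMB tumors (SD, n = 7), 8.55 ± 0.48 in anti-PD1 tumors (n = 6), 7.97 ± 1.13 in HMB tumors (n = 7) and 7.83 ± 0.85 in control tumors (n = 6). Ordered from high to low they ran anti-PD1, HMB, control and anti-PD1 + HMB. Anti-PD1 + HMB tumor 7 lay at 4.90, and without it that group's mean was 7.88 ± 0.48 (n = 6), close to the control mean.

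Pdx1, the homeodomain factor of pancreatic progenitors and beta cells, was above the receptor gene mark in 26 of 26 tumors, above the negative-control mark in 0 of 26 and above the brightest composition-binned probe set in 14 of 26. In anti-PD1 + HMB tumors it ran from 6.07 to 8.70 with a median of 7.74, and in anti-PD1 tumors from 7.10 to 8.96 with a median of 8.48. In HMB tumors it ran from 6.93 to 9.01 with a median of 8.09, against 6.74 to 8.95 with a median of 7.78 in control tumors. Every pair of groups overlapped, and the lowest value was again that of anti-PD1 + HMB tumor 7. Means were 7.50 ± 0.90 in anti-PD1 + HMB tumors (SD, n = 7), 8.31 ± 0.64 in anti-PD1 tumors (n = 6), 7.96 ± 0.76 in HMB tumors (n = 7) and 7.87 ± 0.73 in control tumors (n = 6). The order of the groups was the same as for Foxa2, and without tumor 7 the anti-PD1 + HMB mean was 7.74 ± 0.71 (n = 6).

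The other 5 genes were at background. Ptf1a, the factor that drives digestive enzyme genes in acinar cells, ran from 2.06 to 3.22 over the 26 tumors, and 0 of 26 values passed either the receptor gene mark or the negative-control mark. Hnf4a, a nuclear receptor of liver, gut and classical pancreatic tumors, ran from 2.02 to 3.10, Gata6 from 2.83 to 4.06 and Onecut1, a cut-homeodomain factor of progenitors and ducts, from 3.21 to 4.22, each with 0 of 26 values above either mark. Ptf1a and Hnf4a averaged 2.60 and 2.50, below the median receptor gene mean of 3.03, while Gata6 averaged 3.35 and Onecut1 3.75. For these genes the arrays give only the bound that they were not above the background measured here. Nr5a2, a nuclear receptor that supports acinar identity, ran from 2.05 to 4.88, and a single tumor, anti-PD1 + HMB tumor 7, passed the receptor gene mark. Its lowest, median and highest values were 2.05, 2.90 and 4.88 in anti-PD1 + HMB tumors, 2.38, 3.18 and 3.81 in anti-PD1 tumors, 2.81, 3.07 and 4.14 in HMB tumors and 2.06, 3.34 and 4.01 in control tumors. Those ranges overlapped in all 4 groups, and the other 25 tumors ended at 4.14.

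**Figure D1:**
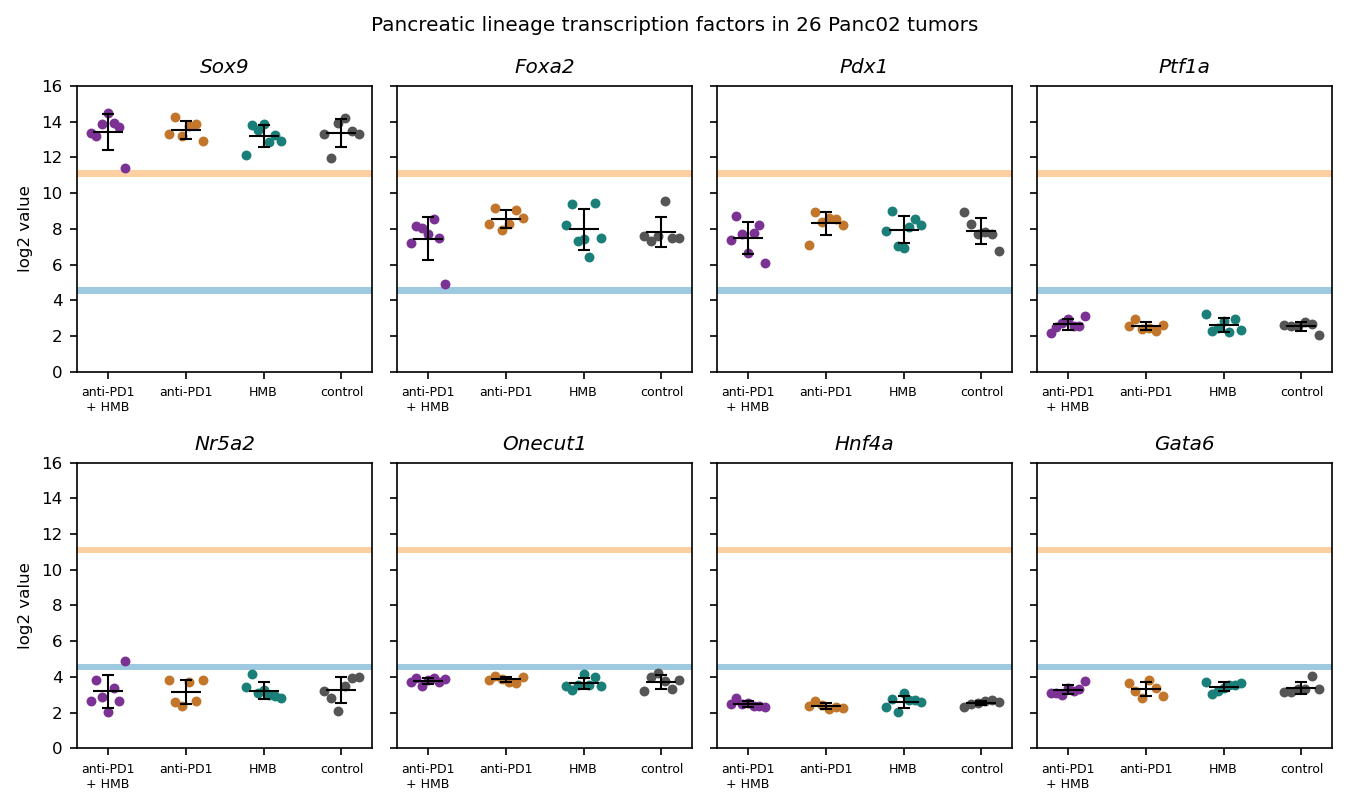
Log2 value (vertical axis) of each of the 8 genes in the 26 tumors, by group (horizontal axis), with 1 point per tumor and black bars for the mean and SD. The blue band spans the receptor gene marks of the arrays (4.37 to 4.74) and the orange band the negative-control marks (10.91 to 11.28); Sox9 lies above both bands, Foxa2 and Pdx1 lie between them, and the other 5 genes lie below both apart from 1 Nr5a2 value.

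The genes differed in how much they varied between tumors. Foxa2 had an SD over the 26 tumors of 1.004, Pdx1 of 0.78, Sox9 of 0.71 and Nr5a2 of 0.68, each larger than that of at least 99.0% of the receptor genes, whose median SD was 0.36. Ptf1a, Hnf4a, Gata6 and Onecut1 had SDs of 0.29, 0.22, 0.30 and 0.27, within the receptor genes. Without anti-PD1 + HMB tumor 7 the SD was 0.81 for Foxa2, 0.70 for Pdx1, 0.60 for Sox9 and 0.60 for Nr5a2. Little of this variation lay between the groups. Group membership held 15.8% of the variance of Foxa2, 14.3% of that of Pdx1, 3.16% of that of Sox9 and 0.294% of that of Nr5a2, against a median of 11.5% and a 95th percentile of 32.1% over all named genes.

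The wider pancreatic program was read in the same way, from gene lists written for this purpose, with a gene counted when its mean over the tumors was above 4.37, the 95th percentile of the receptor genes' means. Of the 8 genes 3 were counted, and of 29 other measured pancreatic transcription factors 14 were, against 64.7% of all named genes. The members of these lists picked out here were named after their values were seen. Among relatives of the 8 genes, Foxa1 had 0 of 26 values above the receptor gene mark and Foxa3 had 1, while Gata4 had 26 and Onecut2 had 20. Neurog3, which starts the endocrine program, and Bhlha15 and Rbpjl, which act with Ptf1a in acinar cells, were above the mark in 0 of 26 tumors. Glis3, a zinc finger factor needed for beta cells, Rbpj, the DNA-binding partner of Notch and also of Ptf1a, and Xbp1, a factor of the secretory stress response, were above it in 26 of 26. Of the acinar cell genes 5 of 28 were counted, the protease genes Ctrl and Cela2a, the inhibitor gene Spink1, Klk1 and Gatm, of which Gatm, an enzyme of creatine synthesis, is also used outside the pancreas. Ctrl, Cela2a and Gatm were above the receptor gene mark in 26 of 26 tumors, Spink1 in 16 and Klk1 in 12. The carboxypeptidase gene Cpa1 was above the mark in 7 of 26 tumors, and the protease genes Cpb1, Prss1 and Cela1 and the lipase gene Cel in 0 of 26. Of the endocrine islet genes 1 of 21 was counted, Ptprn. The hormone genes Gcg, Ppy and Iapp had 0 of 26 values above the receptor gene mark, Ghrl had 1, Ins2 and Sst 2 each and Pyy 3. Ductal epithelial genes were counted for 15 of 24, with the simple-epithelial keratins Krt8 and Krt18 above both marks in 26 of 26 tumors. The claudin Cldn7 was above the receptor gene mark in 25 tumors, Cdh1 in 26 and Epcam in 21. The claudins Cldn3 and Cldn4 and the epithelial factor Grhl2 were above that mark in 0 of 26. Classical subtype genes were counted for 6 of 21, basal subtype genes for 7 of 17 and mesenchymal genes for 17 of 18.

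**Figure D2:**
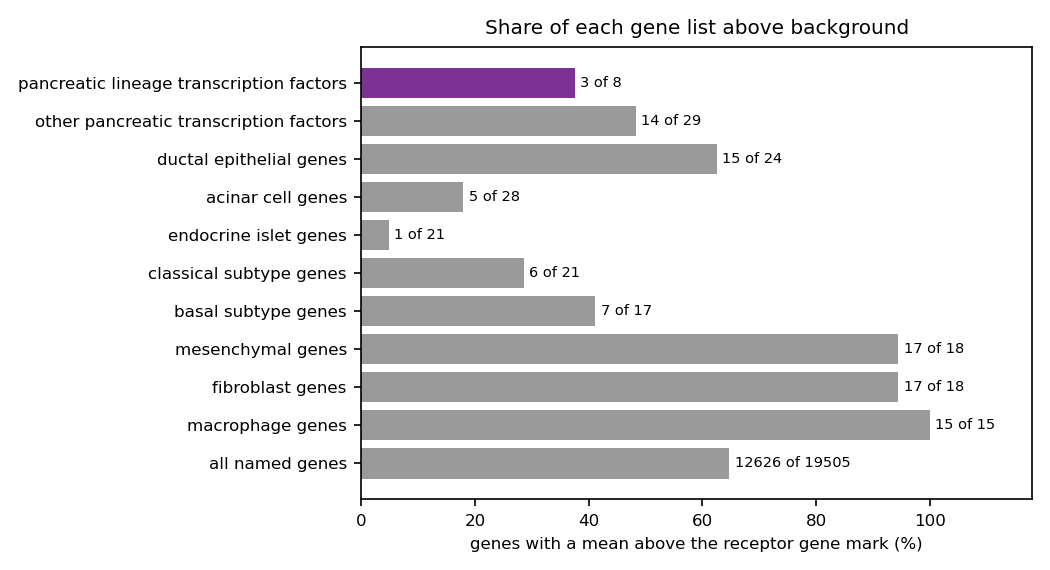
Horizontal bars give the share (in %) of the measured genes of each list whose mean over the 26 tumors lay above 4.37. That cutoff is the 95th percentile of the receptor genes' means, and the number of genes stands beside each bar. The pancreatic lineage transcription factors reach 3 of 8, the acinar cell genes 5 of 28 and the endocrine islet genes 1 of 21, below the 12626 of 19505 named genes.

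Chondrocytes and hair follicle cells also make Sox9, and their markers were read beside it. The chondrocyte genes picked out here were named after their values were seen. Of the chondrocyte genes 6 of 15 had a mean above 4.37, the 95th percentile of the receptor genes' means. The number of tumors above the receptor gene mark was 0 for the cartilage matrix genes Matn1, Col9a1 and Chad. It was 7 for Col2a1, 16 for Acan and 26 for Col9a2, Col9a3 and Sox5. Sox9 had a Pearson r with the chondrocyte score of 0.003 and a Spearman rho of 0.02, with permutation p of 0.988 and 0.932 (26 tumors; adjusted p = 0.993 and 0.999), and r was -0.13 without anti-PD1 + HMB tumor 7 and -0.12 without the 2 farthest tumors. Of the skin and hair follicle genes 4 of 19 were counted, and r with Sox9 was -0.21 (permutation p = 0.300, adjusted p = 0.758; rho = -0.39, permutation p = 0.0478, adjusted p = 0.672). Here r was -0.38 without tumor 7 and -0.10 without the 2 farthest tumors. The part of such cells in the level of Sox9 was not tested.

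Differences between groups were taken from 1 limma fit over all tumors and all 19505 genes, with Benjamini-Hochberg adjustment, to ask whether HMB, anti-PD1 or both altered the lineage factors. None of the 8 genes passed an adjusted p of 0.05 in any of the 6 comparisons (5 between pairs of groups, and the interaction of both treatments), and the smallest adjusted p among them was 0.788. The background was the same, with 0% of all genes called in each comparison. At an unadjusted p under 0.05, limma called 8.13% of all genes for anti-PD1 + HMB against control (1586 genes), 6% for anti-PD1 against control (1171 genes) and 6.93% for HMB against control (1352 genes). The shares were 4.18% where anti-PD1 + HMB was set against anti-PD1 (815 genes), 8.8% where it was set against HMB (1717 genes) and 5.57% for the interaction (1086 genes). Of the 48 tests of the 8 genes 1 was under that level, Foxa2 in anti-PD1 + HMB against anti-PD1. The methods' t-test, run on the same values, called 0 genes after adjustment in each of the 5 pairwise comparisons. Without adjustment it placed 0 of 40 tests of the 8 genes under 0.05, and between 688 and 1386 of all genes per comparison.

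Foxa2 was 1.10 log2 units lower in anti-PD1 + HMB than in anti-PD1 tumors on average, with a limma difference of -1.10 (SE 0.51, 95% interval -2.15 to -0.05, unadjusted p = 0.0415, adjusted p = 0.999). Pdx1 in the same comparison had a limma difference of -0.81 (SE 0.40, 95% interval -1.65 to 0.02, adjusted p = 0.999). Both intervals reach close to 0 and neither difference held after adjustment. Without anti-PD1 + HMB tumor 7 the Foxa2 difference was -0.67 (SE 0.43, limma unadjusted p = 0.134, adjusted p = 0.9998) and the Pdx1 difference -0.58 (SE 0.39, limma adjusted p = 0.9998). The ductal epithelial score was also lower, between -0.94 and 0.20 in anti-PD1 + HMB tumors (median -0.20), against -0.13 to 0.49 in anti-PD1 tumors (median 0.17). Scores of other cell types went both ways at the median. The T cell, skeletal muscle, endothelial, adipocyte, fibroblast, macrophage and Schwann cell scores were higher. The B cell, mesenchymal, chondrocyte and skin and hair follicle scores were lower. The T cell score lay between -0.38 and 3.82 in anti-PD1 + HMB tumors (median 0.78), against -0.56 to 1.30 in anti-PD1 tumors (median -0.01), and the skeletal muscle score between -1.41 and 5.35 (median 0.35), against -1.40 to 1.01 (median -1.26). By gene, 14 of 14 T cell genes (median log2 difference 0.87), 13 of 13 B cell genes (0.73) and 21 of 22 skeletal muscle genes (1.83) had positive differences. So had 14 of 16 endothelial genes (0.41), 16 of 17 adipocyte genes (0.42) and 5 of 9 Schwann cell genes (0.09). The counts were 8 of 18 for fibroblast genes (-0.12), 6 of 15 for macrophage genes (-0.22) and 6 of 18 for mesenchymal genes (-0.17). They were 5 of 15 for chondrocyte genes (-0.14) and 6 of 19 for skin and hair follicle genes (-0.23). In each list 0 genes were called after adjustment, and 9369 of 19505 genes overall had positive differences. These differences include anti-PD1 + HMB tumor 7, whose B cell score was 7.16 and adipocyte score 5.82. The other anti-PD1 + HMB tumors had B cell scores between -0.99 and -0.39, against -0.83 to 1.31 in anti-PD1 tumors. Their adipocyte scores lay between -2.01 and 1.78, against -2.17 to 2.63. The part of these cell types in the Foxa2 and Pdx1 differences was not tested.

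For anti-PD1 against control, the limma difference was 0.72 for Foxa2 (SE 0.53, 95% interval -0.37 to 1.81, adjusted p = 0.893) and 0.44 for Pdx1 (SE 0.42, 95% interval -0.42 to 1.31, adjusted p = 0.932). For HMB against control it was 0.14 for Foxa2 (SE 0.51, 95% interval -0.92 to 1.19) and 0.09 for Pdx1 (SE 0.40, 95% interval -0.74 to 0.92). These comparisons share the control tumors, as does the next. For anti-PD1 + HMB against control the difference was -0.38 for Foxa2 (SE 0.51, 95% interval -1.43 to 0.67, adjusted p = 0.868) and -0.37 for Pdx1 (SE 0.40, 95% interval -1.20 to 0.46, adjusted p = 0.824). Against HMB alone, anti-PD1 + HMB gave -0.52 for Foxa2 (95% interval -1.53 to 0.49) and -0.46 for Pdx1 (95% interval -1.26 to 0.34). Without tumor 7 these came to -0.09 and -0.23, and those against control to 0.05 for Foxa2 and -0.13 for Pdx1. The interaction, which asks whether the effect of anti-PD1 differed between HMB-fed and other mice, was -1.24 for Foxa2 (SE 0.72, 95% interval -2.72 to 0.25, limma adjusted p = 0.889) and -0.91 for Pdx1 (SE 0.57, 95% interval -2.08 to 0.27, limma adjusted p = 0.889). Without tumor 7 these interaction values were -0.81 and -0.67. The Foxa2 interval reached past 1 log2 unit in at least 1 direction in all 6 comparisons.

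The differences of Sox9 ran from -0.16 for HMB against control (SE 0.39, 95% interval -0.97 to 0.65) to 0.21 for anti-PD1 + HMB against HMB (SE 0.38, 95% interval -0.56 to 0.99), with 0.05 for anti-PD1 + HMB against control, 0.19 for anti-PD1 against control, 0.03 for the interaction and -0.13 where anti-PD1 + HMB was set against anti-PD1. Their limma adjusted p ran from 0.927 to 0.999. Without tumor 7, anti-PD1 + HMB against anti-PD1 came to 0.21 in place of -0.13, anti-PD1 + HMB against control to 0.39, anti-PD1 + HMB against HMB to 0.55 (SE 0.32, limma unadjusted p = 0.0929, adjusted p = 0.683) and the interaction to 0.36. For the 5 genes at background no fold is given, and the smallest limma adjusted p among their 30 tests was 0.821.

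**Figure D3:**
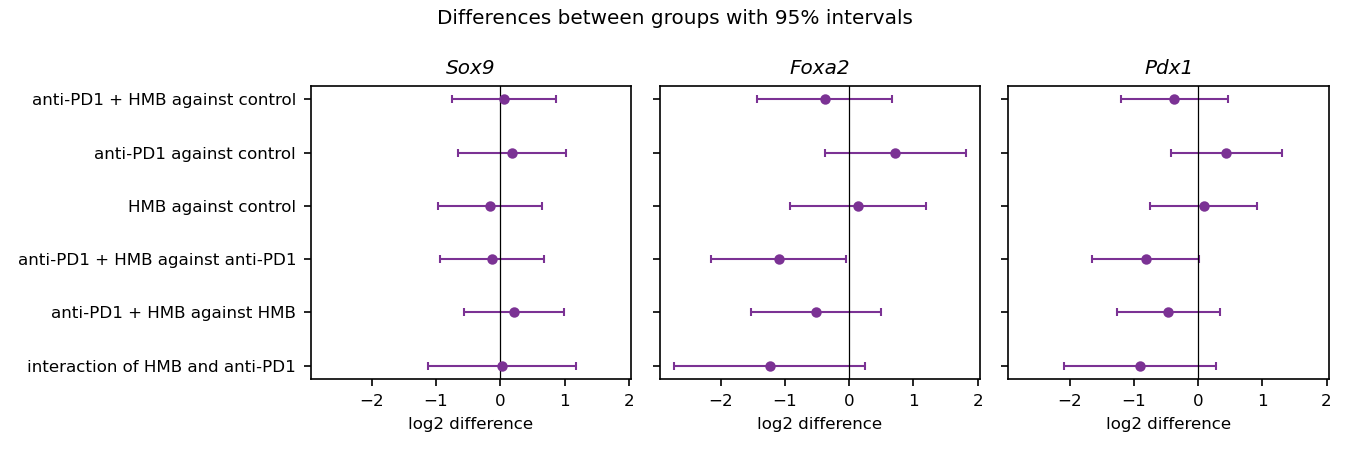
Log2 difference (horizontal axis) of Sox9, Foxa2 and Pdx1 in 6 comparisons (rows), with points for the limma estimate and bars for its 95% interval. The interval of Foxa2 in anti-PD1 + HMB against anti-PD1, -2.15 to -0.05, is the 1 interval drawn that leaves out 0.

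The same fit called 0 of the 29 other pancreatic transcription factors in each comparison after adjustment. Without adjustment it placed 1 of 29 under 0.05 for anti-PD1 + HMB against control, 5 for anti-PD1 against control, 3 for HMB against control, 0 for anti-PD1 + HMB against anti-PD1, 4 for anti-PD1 + HMB against HMB and 5 for the interaction. In the same order, 8.13%, 6%, 6.93%, 4.18%, 8.8% and 5.57% of all genes were under 0.05 without adjustment. The median log2 difference of the 29 factors lay between -0.11 and 0.01 across the 6 comparisons, against -0.02 to 0.01 for all genes. Elf3, an epithelial ETS factor, had the smallest p of those lower in anti-PD1 + HMB against HMB, with a limma difference of -0.83 (SE 0.27, adjusted p = 0.318), and was above the receptor gene mark in 14 of 26 tumors. In anti-PD1 + HMB against anti-PD1, 10136 of 19505 named genes were lower. Ductal epithelial genes gave 16 of 24 lower and 8 higher in that comparison, with a median of -0.19 and 0 called after adjustment. Krt19, a duct keratin, had the smallest p there, at -2.33 (SE 0.79, limma adjusted p = 0.999). Esrp1, an epithelial splicing regulator, had the smallest p of the ductal list in the interaction, at -4.69 (SE 1.08, limma adjusted p = 0.515).

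The lineage factors were then related to each other and to the marker scores across the 26 tumors, in 164 relations with permutation p adjusted over all of them. No relation passed an adjusted p of 0.05 by Pearson's r or Spearman's rho. Among the 28 pairs of the 8 genes, Pdx1 and Foxa2 had the highest r at 0.59 (permutation p = 0.00135, adjusted p = 0.111) and a rho of 0.54 (permutation p = 0.00487, adjusted p = 0.417). It was 0.52 with group means subtracted, 0.42 without anti-PD1 + HMB tumor 7 and 0.48 without the 2 tumors farthest from the median. Sox9 and Foxa2 had r = 0.58 (permutation p = 0.00248, adjusted p = 0.136) and rho = 0.39 (permutation p = 0.0479, adjusted p = 0.672). For this pair r was 0.35 without tumor 7 and 0.27 without the 2 farthest tumors, so it rested on those tumors. Pdx1 and Sox9 had r = 0.16 (permutation p = 0.437, adjusted p = 0.852) and rho = -0.06 (permutation p = 0.766, adjusted p = 0.992), and r = -0.15 without tumor 7 and -0.12 without the 2 farthest.

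**Figure D4:**
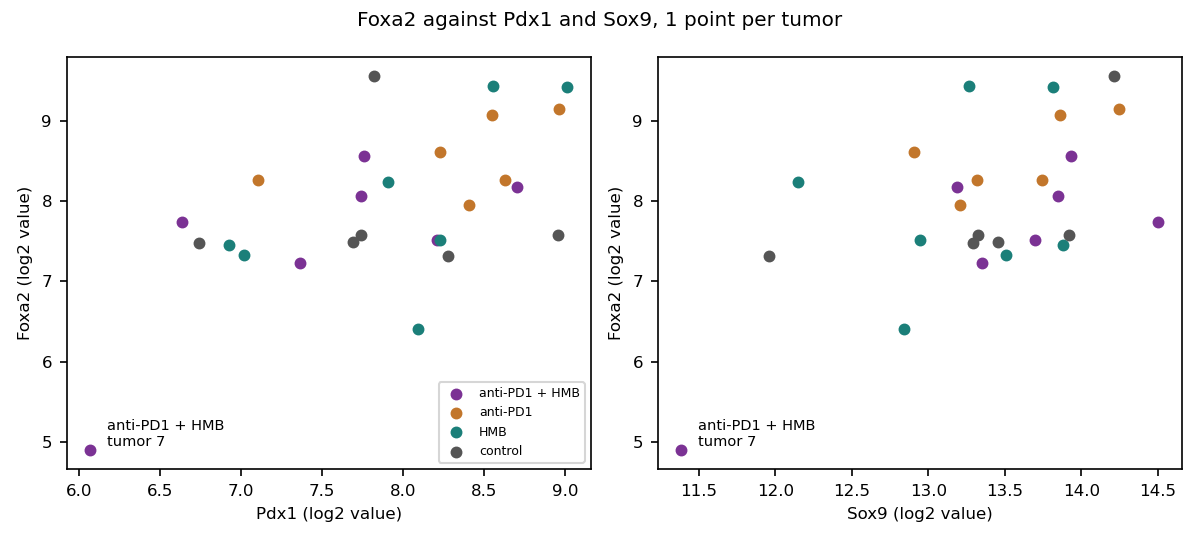
Log2 values of Foxa2 (vertical axes) against Pdx1 and Sox9 (horizontal axes), 1 point per tumor, colored by group. Anti-PD1 + HMB tumor 7 lies at the lower left of both plots, and r is 0.59 with Pdx1 and 0.58 with Sox9 over 26 tumors, against 0.42 and 0.35 without it.

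Other cell types' scores were highest in r with Nr5a2, the gene whose 1 value above the mark came from the tumor highest in B cell genes. Its r with the B cell score was 0.60 (permutation p = 0.00093, adjusted p = 0.111; rho = 0.37, permutation p = 0.0605, adjusted p = 0.672), and it was 0.39 without tumor 7 and 0.21 without the 2 farthest tumors. B cell genes had a mean above 4.37, the 95th percentile of the receptor genes' means, for 9 of 13, with tumor 7 included. Within single tumors between 3 and 13 of the 13 genes passed the receptor gene mark, with a median of 4.5. The B cell score ran from -0.99 to 7.16 in anti-PD1 + HMB tumors and -0.83 to 1.31 in anti-PD1 tumors. It ran from -1.21 to 2.69 in HMB tumors and -0.62 to -0.16 in control tumors. For Foxa2 the r with the B cell score was -0.36 (permutation p = 0.0727, adjusted p = 0.701; rho = 0.12, permutation p = 0.548, adjusted p = 0.963), with 0.49 when tumor 7 was left out and 0.37 without the 2 farthest tumors. Sox9 had r = -0.47 with the B cell score (permutation p = 0.0295, adjusted p = 0.427; rho = -0.19, permutation p = 0.363, adjusted p = 0.963), 0.07 without tumor 7 and -0.04 without the 2 farthest. The ductal score had r = 0.18 with Pdx1, 0.05 with Foxa2 and -0.05 with Sox9 (permutation p = 0.369, 0.813 and 0.802, adjusted p = 0.806, 0.987 and 0.987; rho = 0.14, -0.01 and -0.13, permutation p = 0.507, 0.955 and 0.532, adjusted p = 0.963, 0.999 and 0.963). Without the 2 farthest tumors these were -0.06, -0.03 and -0.34, and without tumor 7 they were -0.02, -0.30 and -0.39.

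The genes most like each factor were taken as the 3 with the highest Pearson r among all named genes over the 26 tumors. They are a description, and the part of the tumors' cellular makeup in these r values was not tested. Pdx1 was nearest to Meis2, a homeodomain factor of the TALE class (r = 0.80), Fmn1, an actin-nucleating formin (0.79), and Ank3, a membrane scaffold ankyrin (0.74), with 0.73, 0.73 and 0.65 without tumor 7. Foxa2 was nearest to the Krüppel-like zinc finger factors Glis3 (0.80) and Glis2 (0.76) and to Nxpe5 (0.75), with 0.69, 0.61 and 0.63 without that tumor. Sox9 was nearest to Nfix, a nuclear factor I protein (0.79), Bag3, a co-chaperone (0.75), and Ubap2 (0.75), with 0.67, 0.72 and 0.63 without it. All 9 of these genes were above the receptor gene mark in 26 of 26 tumors. The median absolute r over all named genes was 0.16 for Pdx1, 0.18 for Foxa2 and 0.17 for Sox9. Nr5a2 was nearest to Entpd6 (0.74), Ccr9, a chemokine receptor of lymphocytes (0.73), and Limd2 (0.72), with 0.65, 0.61 and 0.60 without tumor 7. For the genes whose own values were at background the nearest were Lingo1, Ube2dnl2 and Tbx6 for Ptf1a (0.69 to 0.72), Zic5, Brat1 and Cep126 for Hnf4a (0.66 to 0.68), Pigc, Limk1 and Olfr677 for Gata6 (0.63 to 0.75) and Hsdl1, Gabra5 and Gpr6 for Onecut1 (0.68 to 0.73).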

How the data were processed

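The authors deposited 1 processed log2 value per probe set and tumor, made from hybridized Clariom S arrays by steps not given in the sources. The base of the log is not stated either and was assumed from the range of 1.08 to 19.34. Of 28846 probe sets, 19572 had 1 gene symbol in the platform annotation and 9274 had none and were left out; where a gene had more than 1 probe set (55 genes), the brightest on average stood for it. No gene was filtered for a low value. Groups came from the sample titles. Genes were compared with limma 3.58.1 in R 4.3.3, with 1 mean per group and Benjamini-Hochberg adjustment over all 19505 genes at 0.05. The number of arrays limits the precision, and p-values measure the spread between these tumors.

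The 8 genes and the 17 other lists (314 measured of 344 genes written) were chosen with earlier results of these data known. Named genes were the 8, the member of each list with the smallest p in each direction, and the 3 genes nearest each of the 8 in r; others are marked. Correlations used 100000 permutations in Python 3.11.15 with numpy 2.4.6. The limma fit and the permutation correlations were tested on simulated data. The alternatives were quantile normalization, removal of dim genes, another variance model, array weights, the mean of probe sets, fits of the compared groups, the replicate number as a block, the methods' t-test, other background marks and leaving out each tumor. Leaving out anti-PD1 + HMB tumor 7 in correlations and the composition-binned mark were chosen after seeing the data. No coordinates of probe sets are given.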

Additional observations from a re-analysis of the deposited data

Results flagged for a closer look

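In 32 combinations of gene and group, 5 held a tumor that was far from the rest of its group, by the gap to its nearest neighbor relative to the group's range. Chance flags about 1 in 20 such groups. Anti-PD1 + HMB tumor 7 was low for Sox9 at 11.39 and for Foxa2 at 4.90, and its B cell score was the highest of all tumors. Control tumor 4 was high for Foxa2 at 9.56. Control tumor 6 was low for Ptf1a at 2.06 and control tumor 5 high for Gata6 at 4.06, both within the background range.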

How the results depend on the processing

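Under 8 other settings for the pairwise comparisons and 6 for the interaction, limma or the methods' t-test called 0 genes in every comparison and 0 of the 8 genes in 338 fits, with a smallest adjusted p of 0.583. Of these fits 10 turned direction. For Sox9, Foxa2 and Pdx1, array weights turned Foxa2 in anti-PD1 + HMB against control (0.12) and Sox9 in anti-PD1 + HMB against anti-PD1 (0.070). The replicate number as a block gave Sox9 0.057 in anti-PD1 + HMB against anti-PD1 and 0.030 for HMB against control. Deviations of same-numbered tumors from their group means had r between -0.24 and 0.32 (37 pairs, median -0.01, 12 over 0.1). Differently numbered tumors were not compared, so these values cannot tell whether the numbers pair the tumors. The block called 0 genes in all 6 comparisons. The cause of these turns was not tested. Removing dim genes left 9528 genes and could not be run for the 5 genes at background. Above background by the receptor gene mark were 26 tumors for Pdx1, 26 for Foxa2 and 1 for Nr5a2, by the composition-binned mark 14 for Pdx1 and 11 for Foxa2, and by the negative-control mark 0 for all 3.

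Leaving out each tumor in turn gave 0 to 1 called genes for anti-PD1 against control, HMB against control and the interaction, 0 to 4 where anti-PD1 + HMB was set against HMB, and 0 where it was set against control or anti-PD1; 0 of the 8 genes were called. The 1 gene for anti-PD1 against control came without anti-PD1 + HMB tumor 7, for HMB against control without anti-PD1 tumor 6 and for the interaction without HMB tumor 3, and the 4 came without anti-PD1 + HMB tumor 1. Direction turned for Sox9 in anti-PD1 + HMB against control (-0.23 to 0.39), anti-PD1 against control (-0.094 to 0.36), HMB against control (-0.44 to 0.015), anti-PD1 + HMB against anti-PD1 (-0.31 to 0.21) and the interaction (-0.15 to 0.36), for Foxa2 in anti-PD1 + HMB against control (-0.57 to 0.046) and HMB against control (-0.11 to 0.48), and for Pdx1 in HMB against control (-0.13 to 0.31). Without anti-PD1 + HMB tumor 7, r turned in 39 of 164 relations, among them to -0.15 for Pdx1 and Sox9, to 0.070 for Sox9, 0.49 for Foxa2 and 0.42 for Pdx1 with the B cell score, to -0.022 for Pdx1 and -0.30 for Foxa2 with the ductal score (Foxa2 -0.11 with group means subtracted) and to -0.13 for Sox9 and the chondrocyte score.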

Other observations

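Single genes of the basal and classical subtype lists lay above background, while the lists as a whole did so for 7 of 17 and 6 of 21 genes, against 64.7% of all named genes. The genes given here were named after their values were seen. Trp63, the p63 factor of basal epithelia, was above the receptor gene mark in 26 of 26 tumors and above the negative-control mark in 24, and the laminin-binding integrins Itga6 and Itgb4 were above both in 26. Of the basal keratins, Krt14 was above the receptor gene mark in 26 tumors and Krt5 and Krt17 in 2 and 0. Of the classical subtype list, the intestinal factor Cdx2 was above it in 25 tumors and Cdh17, a cadherin of intestinal epithelium, in 26, while the trefoil factors Tff1, Tff2 and Tff3 were above it in 0, the villus protein gene Vil1 in 2 and the fatty acid carrier gene Fabp1 in 1.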
